A study of Mus musculus with 6 samples.

Results

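The immunoglobulin V gene segments were described in T cells of the mouse kept in co-culture with ovarian cancer cells. They were taken as the rows of the deposited gene table whose biotype is IG_V_gene, 218 of 54532 rows. Of these, 113 are heavy chain segments (Ighv, chromosome 12), 100 are kappa light chain segments (Igkv, chromosome 6) and 3 are lambda light chain segments (Iglv, chromosome 16). The other 2, Gm43218 and Gm42543, lie on chromosome 6 and carry no locus prefix. Rows of V pseudogenes (155) and 4 rows of biotype IG_LV_gene were outside the rule. Both groups held spleen T cells of C57BL/6 mice aged 6 to 8 weeks, isolated with a pan T-cell kit and pre-activated in IL-2 with beads against CD3 and CD28. In the cisplatin group, 3 libraries came from T cells grown beside ID8 cells (an ovarian cancer line of the mouse) pretreated with 40 µM cisplatin. In the control group, 3 libraries came from T cells whose ID8 partners had received PBS. The study speaks of biological replicates and independent samples, but the sources do not say whether the libraries of a group came from separate mice or from separate cultures, so the p-values measure the spread between these libraries, which may be technical.

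A V segment is the germline gene piece that codes for most of the variable domain of an antibody chain. A developing B cell joins 1 V segment to D and J pieces at the heavy chain locus, or to a J piece at the kappa or lambda locus, and transcription from the promoter of the chosen segment then runs into the constant region. RNA of many V segments therefore reflects a population of B cells or plasma cells that each use their own segments, and T cells rearrange their receptor loci in place of these. The level of a segment in bulk RNA mixes how many cells use it with how much RNA each of them holds, and fewer cells and less RNA per cell cannot be told apart.

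Transcripts of B cells were present in all 6 libraries although the cells are labelled as T cells. The 17 B-cell identity genes, such as Cd79a, Cd79b and Ms4a1, summed to 594 to 624 FPKM in the cisplatin libraries and 400.5 to 425 FPKM in the control libraries, where FPKM is the number of fragments scaled to gene length and library size. The 26 T-cell identity genes summed to 3365 to 3439 FPKM against 2150.2 to 2275 FPKM. By adjusted p alone 25 of these genes were higher and Themis lower, against 27.5% and 29.0% of all tested genes. None of them reached 2-fold. Markers of ID8 cells, such as Krt19 and Msln, went the other way: their 20 listed genes summed to 573 to 616 FPKM with cisplatin and to 2051 to 2167 FPKM in the controls, and 16 of the 19 tested fell. Krt7 was near 0 in both groups and Epcam averaged 1.39 and 1.48 FPKM. Of 11 tested myeloid markers 7 rose and Cebpb fell, while 4.11% of all tested genes rose and 12.8% fell by the rule given below. Summed levels of the myeloid markers were 143 to 165 FPKM against 106 to 113 FPKM, and S100a8 and S100a9 were near 0. Whether these marker differences reflect cell make-up or RNA per cell was not tested, and neither was their part in the V segment results. The V segments are given below also relative to the B-cell and to the T-cell lists. Depth was even, with 30606569 to 32169496 reads on genes per library. Reads were rebuilt from the FPKM values, and every value above 0 lay within 0.1 of a whole read.

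V segments took up more of every cisplatin library than of any control library. Summed over the 218 rows, the level was 6839, 7407 and 7009 FPKM in cisplatin 1, 2 and 3 and 2925, 3209 and 3319 FPKM in control 1, 2 and 3, a 2.25-fold ratio of means. In reads this was 82462, 91530 and 84515 against 32804, 35937 and 38000, or 0.274% ± 0.0093 of all reads on genes against 0.115% ± 0.0074 (SD, n = 3). The groups did not overlap on either scale. The two-sided exact permutation test gave p = 0.1, the smallest that 3 libraries against 3 allow. The same holds for each sum or ratio over all 6 libraries below where no other p is given. Shares of families within a locus are an exception, as they were not tested.

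All 3 loci moved in the same direction. Ighv summed to 3093, 3307 and 3266 FPKM with cisplatin and to 1328, 1403 and 1444 FPKM in the controls, a difference of 1.21 on the log2 scale. Igkv summed to 3108, 3389 and 3061 FPKM against 1356, 1541 and 1598 FPKM, a difference of 1.09. Iglv, with only 3 segments, summed to 634, 704 and 678 FPKM against 239, 264 and 275 FPKM, a difference of 1.38. The groups were separate at every locus, and the differences were several times the spread within groups.

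**Figure D1:**
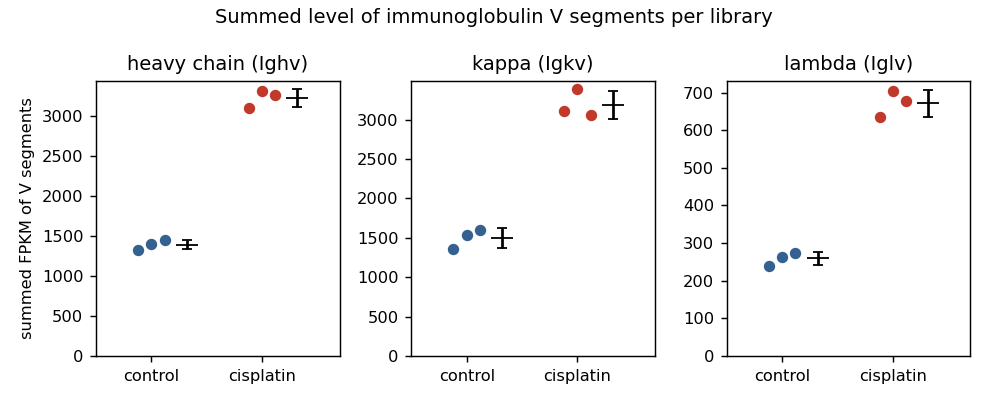
Summed FPKM of the V segments of each locus in each library, on linear axes that start at 0, with points for libraries and a bar for the mean ± SD (n = 3). At each locus the 3 cisplatin libraries lie above the 3 control libraries, at 3093 to 3307 against 1328 to 1444 FPKM for Ighv, 3061 to 3389 against 1356 to 1598 FPKM for Igkv and 634 to 704 against 239 to 275 FPKM for Iglv.

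The groups overlapped in the balance of heavy and light chain segments and were separate in that of kappa and lambda. The ratio of summed Ighv to summed light chain V was 0.836 ± 0.0339 with cisplatin and 0.794 ± 0.0339 in the controls (SD, n = 3), and the groups overlapped (exact permutation p = 0.3). The kappa to lambda ratio was 4.90, 4.81 and 4.52 with cisplatin and 5.68, 5.84 and 5.82 in the controls, so every cisplatin library was lower. Iglv thereby made up 17.4% ± 0.627 of light chain V signal against 14.8% ± 0.191 (SD, n = 3). V signal was close to that of the constant region for Ighv over Ighm and for Igkv over Igkc, and above it for Iglv. The groups overlapped in each such ratio. Ighv over Ighm, the IgM constant region, was 1.001 ± 0.0489 against 0.972 ± 0.0426 (exact permutation p = 0.5, n = 3), Igkv over Igkc was 0.996 ± 0.0497 against 1.01 ± 0.0998 (p = 1), and Iglv over the sum of Iglc1, Iglc2 and Iglc3 was 1.29 ± 0.0445 against 1.20 ± 0.0538 (p = 0.2).

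Of the 218 segments, 211 had at least 1 read and 193 passed the filter of a mean of 0.5 FPKM over the 6 libraries. The 18 that had reads but were not tested held 1 to 31 reads in total and at most 0.455 FPKM on average. The 7 without a read were Ighv1-16, Ighv1-24, Ighv1-62-1, Ighv7-2, Ighv8-13, Ighv16-1 and Igkv1-131. The filter uses the mean of both groups, so a segment of low level could pass on 1 group alone. Most of the repertoire was therefore represented, with 116 segments at 10 FPKM or more and 9 at 100 FPKM or more.

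Most tested segments rose. A segment was called when limma's moderated test on log2(FPKM + 0.1) gave a Benjamini-Hochberg adjusted p under 0.05 over all 15874 tested genes together with a change of at least 2-fold. By this rule 134 of 193 (69.4%) rose and 0 fell, whereas 4.11% of all tested genes rose and 12.8% fell. They were 71 of 96 Ighv, 59 of 93 Igkv, 3 of 3 Iglv, and Gm43218. By adjusted p alone 165 were higher and 0 lower, against 27.5% higher and 29.0% lower among all tested genes. Without any test, 170 segments had all cisplatin libraries above all control libraries and 2 had all below, against 31.9% and 32.3% of all tested genes, and each of the 134 called segments was among the 170.

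The median log2 fold change was 1.23, with an interquartile range of 0.99 to 1.41, compared with 0.03 over all tested genes. By locus the median was 1.28 for Ighv, 1.15 for Igkv and 1.39 for Iglv. By level of expression the median was 0.34 for the 10 segments of 0.5 to 1 FPKM, which ranged from -1.89 to 2.94, and 1.33 for the 43 segments of 1 to 5 FPKM, 1.22 for the 59 of 5 to 20 FPKM, 1.20 for the 72 of 20 to 100 FPKM and 1.27 for the 9 above. Of the 59 segments that were not called, 31 were higher at an adjusted p under 0.05 without reaching 2-fold, and all 81 segments at 20 FPKM or more were higher at an adjusted p under 0.05. The 4 with a fitted change below 0 (Igkv5-37, Ighv11-1, Ighv1-49 and Igkv4-81) had means of 0.543 to 1.11 FPKM. Pairs of libraries gave Pearson correlations of 0.939 to 0.973 within groups and 0.924 to 0.946 between groups over the log2 levels of the 193 segments, which share library and gene length.

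**Figure D2:**
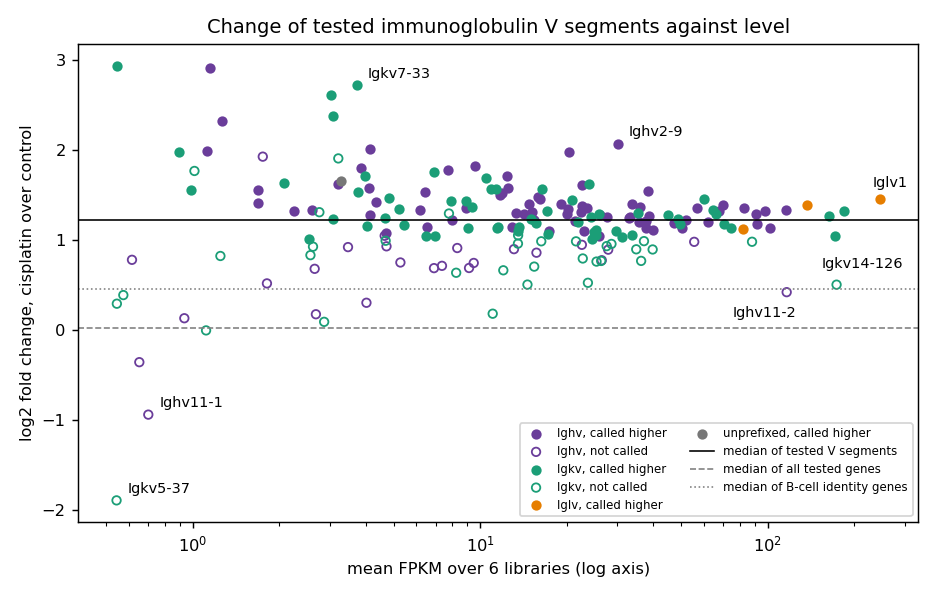
Log2 fold change, cisplatin over control, of each of the 193 tested V segments (vertical axis) against its mean FPKM over 6 libraries (horizontal log axis), coloured by locus, filled where called. The solid line is the median of the V segments (1.23), the dotted line that of the B-cell identity genes (0.46) and the dashed line that of all tested genes (0.03), and the abundant segments Ighv11-2 (0.42) and Igkv14-126 (0.51) lie below the other 7 segments at 100 FPKM or more, while some segments of lower level lie as low or lower.

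The highest lambda segment, the highest heavy chain segment and Igkv14-126 are shown, each beside a close relative. The bases are the last 300 coding bases of the V exon (298 for the kappa pair). Letters come from GENCODE release M21 transcripts on GRCm38, written 5′ to 3′ on the coding strand, and capitals mark the bases that differ between the members of a pair. Iglv1 (ENSMUSG00000076934, chr16:19085017-19085316, minus strand) was the highest of all V segments and Iglv2 (chr16:19260401-19260700, minus strand) the next of its locus. Over the whole V exon they share 97.4% of 302 aligned bases and differ at 8. Ighv11-2 (chr12:114048241-114048540, minus strand), the highest Ighv segment, shares 98.7% with Ighv11-1 (chr12:113981879-113982178, minus strand), with 4 differences. Igkv14-126 (chr6:67896345-67896642, plus strand) shares 90.9% with Igkv14-111 (chr6:68256572-68256869, plus strand), with 27 differences.
Iglv1: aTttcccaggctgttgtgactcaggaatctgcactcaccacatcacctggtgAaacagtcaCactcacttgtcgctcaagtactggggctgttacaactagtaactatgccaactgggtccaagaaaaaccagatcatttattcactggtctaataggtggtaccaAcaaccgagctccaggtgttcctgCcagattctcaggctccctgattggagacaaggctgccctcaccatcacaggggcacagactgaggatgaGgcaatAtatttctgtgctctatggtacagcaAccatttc
Iglv2: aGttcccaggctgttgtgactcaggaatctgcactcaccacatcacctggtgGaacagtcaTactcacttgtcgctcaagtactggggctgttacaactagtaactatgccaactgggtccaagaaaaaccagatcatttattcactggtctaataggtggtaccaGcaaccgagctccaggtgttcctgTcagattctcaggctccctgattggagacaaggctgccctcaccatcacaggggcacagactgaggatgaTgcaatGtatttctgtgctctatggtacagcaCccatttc
Ighv11-2: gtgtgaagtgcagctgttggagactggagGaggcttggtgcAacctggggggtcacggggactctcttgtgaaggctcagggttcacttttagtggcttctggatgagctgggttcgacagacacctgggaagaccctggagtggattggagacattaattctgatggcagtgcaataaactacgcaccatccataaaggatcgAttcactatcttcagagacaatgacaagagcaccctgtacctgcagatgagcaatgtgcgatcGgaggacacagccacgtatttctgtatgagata
Ighv11-1: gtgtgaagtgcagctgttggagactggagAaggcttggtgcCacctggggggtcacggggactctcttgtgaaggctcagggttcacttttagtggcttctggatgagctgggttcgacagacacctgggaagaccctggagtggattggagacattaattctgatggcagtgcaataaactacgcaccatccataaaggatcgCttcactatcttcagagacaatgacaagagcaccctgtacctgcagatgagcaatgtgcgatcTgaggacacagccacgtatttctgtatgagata
Igkv14-126: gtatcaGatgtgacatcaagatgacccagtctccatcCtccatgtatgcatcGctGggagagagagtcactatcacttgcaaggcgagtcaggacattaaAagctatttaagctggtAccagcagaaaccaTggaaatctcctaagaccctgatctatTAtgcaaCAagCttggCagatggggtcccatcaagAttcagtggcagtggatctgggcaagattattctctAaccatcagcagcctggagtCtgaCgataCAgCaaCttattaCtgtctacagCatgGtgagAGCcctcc
Igkv14-111: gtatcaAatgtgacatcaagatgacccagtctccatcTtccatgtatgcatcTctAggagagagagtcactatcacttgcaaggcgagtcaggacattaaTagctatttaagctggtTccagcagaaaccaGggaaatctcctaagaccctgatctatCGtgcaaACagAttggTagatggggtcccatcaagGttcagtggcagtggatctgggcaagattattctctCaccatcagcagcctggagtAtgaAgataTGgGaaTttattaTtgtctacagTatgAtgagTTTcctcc

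The lambda segments were the most abundant in relation to their number. Iglv1 stood at 350.4, 368 and 364 FPKM with cisplatin and at 116, 139 and 141 FPKM in the controls, the highest of the 193 segments, and rose by 1.46 on the log2 scale (SE 0.08, limma adjusted p = 8.4e-06). Iglv2 stood at 181, 213 and 201 FPKM against 71.1, 76.2 and 79.3 FPKM and rose by 1.39 (SE 0.07, adjusted p = 6.3e-06). Iglv3 stood at 102, 123 and 112 FPKM against 51.9, 48.5 and 54.7 FPKM and rose by 1.12. All 3 had separate groups, and reads of Iglv1 and Iglv2, which differ at few bases, cannot be assigned with certainty. A gene on the other strand, 2010309G21Rik, overlaps Iglv1 and averaged 0.733 FPKM with cisplatin and 0.313 FPKM in the controls.

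Among kappa segments the Igkv1 family supplied the highest levels. Igkv1-135 stood at 265, 277 and 249 FPKM with cisplatin and 105, 109 and 102 FPKM in the controls, and rose by 1.32 (SE 0.05, limma adjusted p = 1.5e-06). Igkv1-117 rose by 1.27, Igkv9-120 by 1.29, Igkv8-30 by 1.18 and Igkv10-96 by 1.13, with all cisplatin libraries above all controls. Igkv10-96 reached 0.96 without control 1, under 2-fold. Igkv6-15 stood at 106, 131 and 114 FPKM against 48.2, 70.2 and 60.4 FPKM, and its log2 fold change of 0.98 (SE 0.14, adjusted p = 0.0012) was just short of 2-fold. Igkv1-110 was uneven between replicates, at 256, 295 and 151 FPKM with cisplatin and 99.9, 113 and 116 FPKM in the controls. It rose by 1.04 (SE 0.24), a call that was lost at 0.95 without cisplatin 1, at 0.85 without cisplatin 2 and at 0.98 without control 1.

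The 8 highest heavy chain segments came from 6 families. Ighv6-3 stood at 168, 157 and 172 FPKM with cisplatin and 63.7, 66.0 and 67.7 FPKM in the controls, and rose by 1.33 (SE 0.04, limma adjusted p = 1.0e-06). Ighv10-1 rose by 1.32, Ighv14-2 by 1.36, Ighv6-6 by 1.39, Ighv1-53 by 1.29, Ighv9-3 by 1.18 and Ighv1-26 by 1.14. In each of these the lowest cisplatin library lay above the highest control library. The highest heavy chain segment, Ighv11-2, was the only one of the 8 that was not called.

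**Figure D3:**
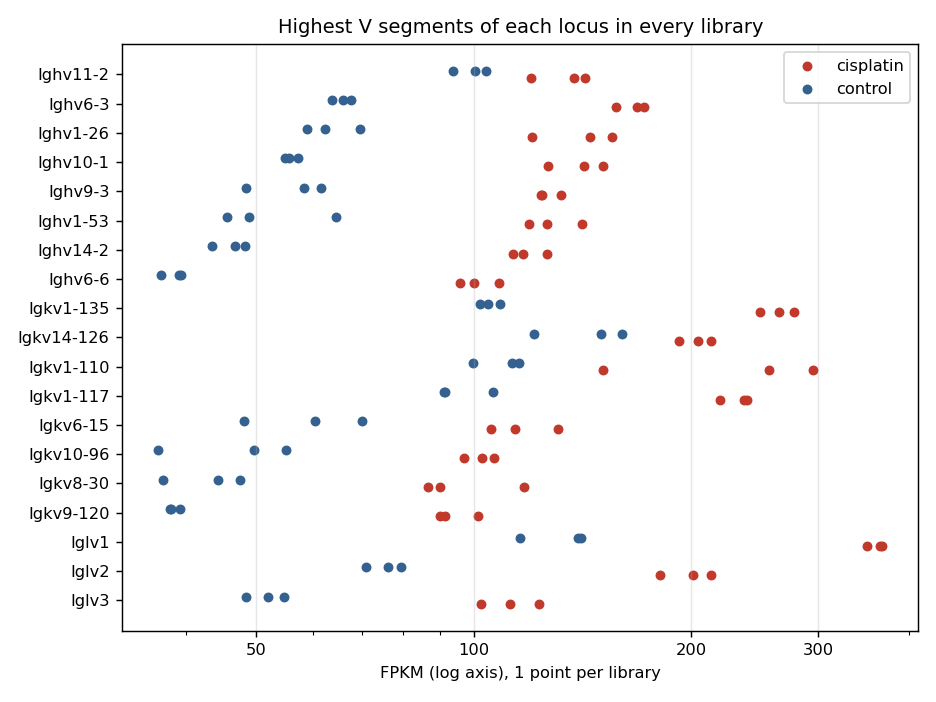
FPKM (log axis) of the 8 highest Ighv, 8 highest Igkv and all 3 Iglv segments, with 1 point per library. The groups are separate for all 19 segments, the gap is smallest for Ighv11-2 (120 to 143 against 93.6 to 104 FPKM) and Igkv14-126 (192 to 213 against 121 to 161 FPKM), and cisplatin 3 is low for Igkv1-110 (151 FPKM).

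Ighv11-2 and Igkv14-126, the highest heavy chain segment and the second highest kappa segment, had smaller changes than the other 7 segments at 100 FPKM or more. In mice this heavy and light chain pair is known from receptors of B-1 cells that bind phosphatidylcholine, B-1 cells being a B-cell subset that makes natural IgM. Ighv11-2 stood at 120, 143 and 138 FPKM with cisplatin and 93.6, 104 and 100.5 FPKM in the controls, a log2 fold change of 0.42 (SE 0.07, limma adjusted p = 0.0027). Igkv14-126 stood at 192, 204 and 213 FPKM against 121, 150 and 161 FPKM, a log2 fold change of 0.51 (SE 0.10, adjusted p = 0.0056). Both were higher in every cisplatin library but fell short of 2-fold.

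As shares of their loci the pair was lower with cisplatin. Ighv11-2 made up 3.88%, 4.32% and 4.22% of Ighv signal with cisplatin and 7.04%, 7.43% and 6.96% in the controls. Igkv14-126 made up 6.19%, 6.02% and 6.97% of Igkv signal against 8.95%, 9.73% and 10.1%. In a limma fit in which each library was centred on its median V segment, chosen after the data were seen, Ighv11-2 differed from the median segment by -0.78 (SE 0.06, adjusted p = 3.6e-06) and Igkv14-126 by -0.70 (SE 0.07, adjusted p = 2.9e-05). In that fit 86.5% of all tested genes were lower and 0.649% higher, so the adjustment over genes is a mild one there.

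The other segments known to form a phosphatidylcholine-binding pair, Ighv12-3 and Igkv4-91, were at lower levels and were named after their values were seen. Ighv12-3 stood at 19.0, 24.5 and 21.4 FPKM with cisplatin and 10.4, 7.27 and 8.49 FPKM in the controls, and Igkv4-91 at 31.0, 39.8 and 31.9 FPKM against 14.6, 17.1 and 17.4 FPKM. They rose by 1.31 and 1.05 on the log2 scale. Against the median V segment their differences were 0.11 (95% interval -0.24 to 0.46) and -0.15 (95% interval -0.35 to 0.048), so a difference from the median segment was not detectable for either.

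Further segments departed from the median V segment. By adjusted p in the centred fit, 23 were above it (14 Ighv, 6 Igkv, 2 Iglv and Gm43218) and 28 below it (13 Ighv and 15 Igkv). Iglv1 was above it by 0.25 and Iglv2 by 0.19. Segments of at least 10 FPKM that were farthest below, beside the B-1 pair, were Igkv4-50 (-1.02), Igkv12-41 (-0.70) and Igkv6-32 (-0.68), and those farthest above were Ighv2-9 (0.87) and Ighv14-1 (0.78). These 5 fall outside the rule for named genes and were chosen after their values were seen. Ighv2-9 stood at 47.7, 55.3 and 43.2 FPKM with cisplatin and 11.7, 12.3 and 10.4 FPKM in the controls, a rise of 2.07 (SE 0.10, limma adjusted p = 5.8e-06). Igkv4-50 stood at 12.3, 14.1 and 8.85 FPKM against 8.61, 13.2 and 9.26 FPKM, and its groups overlapped.

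The largest fitted rises belonged to segments of few reads. Among called segments that averaged 2 FPKM or more in 1 of the groups they were Ighv2-7 (log2 fold change 2.91), Igkv7-33 (2.73), Igkv14-130 (2.61), Igkv9-123 (2.39) and Ighv8-4 (2.32). Igkv7-33 rested on 65, 86 and 82 reads with cisplatin and 15, 9 and 7 reads in the controls (SE 0.26, limma adjusted p = 1.5e-04). Ighv2-7 rested on 29, 20 and 21 reads against 0, 2 and 7, and Igkv14-130 on 63, 50 and 57 reads against 13, 1 and 22. The counts do not overlap in these 3, but the fold changes depend on the pseudocount. That of Ighv2-7 was 1.26 with a pseudocount of 1 and 4.196 with 0.01, and that of Igkv7-33 was 1.97 and 2.85. Single control libraries moved them too: Ighv2-7 to 2.17 without control 1 and 3.62 without control 3, Igkv14-130 to 1.57 without control 2 and 3.30 without control 3, and Ighv8-4 to 1.73 without control 3. Igkv14-130 lost its call when any 1 cisplatin library was left out, with adjusted p-values of 0.087, 0.075 and 0.085 without cisplatin 1, 2 and 3.

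At the other end, Ighv11-1 and Igkv5-37 were the segments in which every control library lay above every cisplatin library in FPKM. Ighv11-1, shown above beside Ighv11-2, had 3, 5 and 8 reads with cisplatin and 12, 10 and 8 reads in the controls, a log2 fold change of -0.94 (SE 0.36, limma adjusted p = 0.063). Igkv5-37 had 0, 2 and 6 reads against 7, 10 and 11, a log2 fold change of -1.89 (adjusted p = 0.053). Neither passed the test, and both were named after their values were seen.

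Families, the groups of related segments that the first number of a name marks, mostly moved together. All cisplatin libraries were above all control libraries in 14 of the 15 Ighv families with reads and in 18 of 20 Igkv families. The remaining Ighv family is Ighv16, whose single member had no read. Among all tested genes, cisplatin libraries were wholly above in 31.9% and wholly below in 32.3%. The family sums hold the same segments as the counts given earlier. The Ighv1 family, with 53 members the largest, summed to 1302, 1414 and 1373 FPKM with cisplatin and 572, 588 and 633 FPKM in the controls, and kept its share of Ighv signal at 42.3% against 43.0%. Ighv14 (log2 difference 1.47) and Ighv2 (1.44) were at the high end of the abundant families. Ighv11, whose signal comes almost wholly from Ighv11-2, was at the low end with 0.41, and its share of Ighv signal was 4.16% with cisplatin against 7.21%. Igkv14 differed by 0.63, with 8.42% of Igkv signal against 11.6%. Igkv1 took 24.3% against 21.96% on average, but its shares overlapped between the groups. The lowest cisplatin share of Igkv1, in the library where its sum was 666 FPKM against 804 and 851 FPKM in the others, lay below the highest control share. Families with reads but without separate groups were Ighv15, Igkv18 and Igkv20, each a single segment under 2 FPKM.

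**Figure D4:**
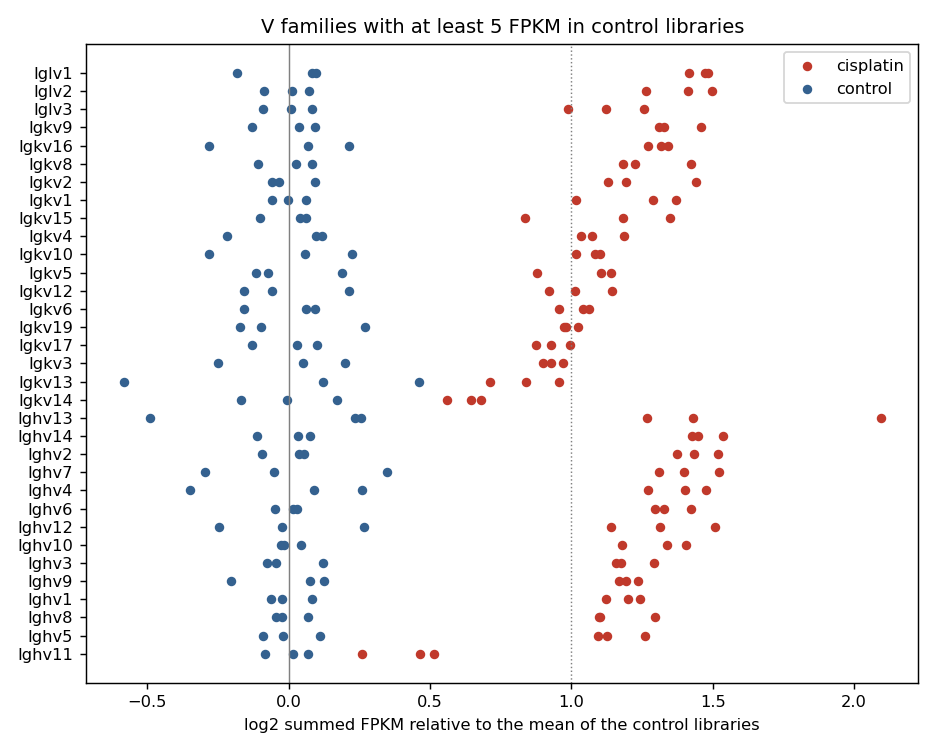
Summed FPKM of each V family with at least 5 FPKM in the controls, in every library, as log2 relative to the mean of the control libraries (Iglv1, Iglv2 and Iglv3 are single segments). The cisplatin points lie to the right of the control points in every family shown, and mostly to the right of the dotted line at 2-fold. Those of Ighv11 (mean difference 0.41) and Igkv14 (0.63) lie farthest to the left.

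The spread of signal over segments was broad in both groups. The 10 highest segments took 29.5%, 29.6% and 28.6% of V signal with cisplatin and 29.9%, 30.1% and 30.1% in the controls, a difference of -0.82 percentage points. The effective number of Ighv segments, which is the number of equally used segments that would give the same evenness, was 43.2 ± 0.415 with cisplatin and 39.7 ± 0.370 in the controls (SD, n = 3). For Igkv it was 28.8, 29.1 and 32.3 with cisplatin and 28.8, 28.6 and 28.9 in the controls. The high value of cisplatin 3 goes with its low Igkv1-110, which took 4.93% of Igkv signal there and 8.25% and 8.71% in the other cisplatin libraries, and the groups overlapped (exact permutation p = 0.2).

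Changes showed little relation to position along the locus. Spearman's rho between log2 fold change and distance to the J segments was -0.11 over 96 Ighv and 0.19 over 93 Igkv segments, and between level and distance it was 0.00 and 0.06 (segments of 1 locus share libraries, so no p is given). Split by distance, 25, 23 and 23 of 32 Ighv segments rose in the near, middle and far part, and 18, 17 and 24 of 31 Igkv segments. Of Igkv segments on the plus strand 25 of 35 rose, and 34 of 58 on the minus strand. For comparison, 69.4% of all tested V segments and 4.11% of all tested genes rose.

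Level did not follow identity to the nearest relative in 1 direction. The 26 segments with a relative of at least 98% identity over the V exon had a median of 3.52 FPKM, the 87 at 95 to 98% a median of 20.1 FPKM, the 50 at 90 to 95% a median of 11.6 FPKM and the 55 under 90% a median of 4.05 FPKM. In the same order 11 of 20, 61 of 80, 26 of 45 and 36 of 48 tested segments rose. The share that rose was 69.4% over all tested V segments and 4.11% over all tested genes. How the authors' counting treated reads that match several segments is not given in the sources used here, so levels of near-identical segments are uncertain. Ighv1-62-2 and Ighv1-71 are identical there and had 43, 13 and 41 reads with cisplatin and 10, 7 and 8 in the controls for the former, and 5, 3 and 6 against 5, 0 and 1 for the latter. Gm43218, which is identical to Igkv8-16 in the V exon, stood at 4.13, 6.58 and 4.49 FPKM against 1.65, 1.45 and 1.42 FPKM and rose by 1.66.

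The rest of the rearranged locus was measured with the V segments. Of 11 tested constant regions, 8 rose: Ighm, the IgM heavy chain, by 1.17, Igkc by 1.10, the lambda constant regions Iglc1, Iglc2 and Iglc3 by 1.29, 1.25 and 1.20, and the switched isotypes Ighg3, Ighg2c and Ighg2b by 1.49, 1.05 and 1.02. Ighd, the IgD constant region of mature naive B cells, was at 41.7, 48.2 and 47.5 FPKM against 39.8, 34.6 and 39.5 FPKM, a log2 fold change of 0.27 that passed the adjusted p (0.022) but not 2-fold. Of 12 tested J segments 7 rose, and of 11 tested D segments, which are very short, 1 rose. Among all tested genes 4.11% rose. V pseudogenes, which cannot code for a chain, summed to 12.6 ± 1.86 FPKM against 6.86 ± 0.910 FPKM (SD, n = 3), 0.177% and 0.218% of the level of the V segments.

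B-cell genes outside the immunoglobulin loci changed less. Of the 17 B-cell identity genes 13 were higher and 2 lower by adjusted p, against 27.5% and 29.0% of all tested genes. At 2-fold 0 of the 17 rose and Fcer2a, the low-affinity IgE receptor, fell by 1.06, against 4.11% and 12.8% of all tested genes. Their median log2 fold change was 0.46. Cd79a, a signalling chain of the B-cell receptor, stood at 115, 129 and 117 FPKM against 87.6, 97.2 and 92.9 FPKM (log2 fold change 0.38). Of 12 transcription factors that act at immunoglobulin promoters or in the B lineage 10 were higher by adjusted p and 0 reached 2-fold, with 0.94 for Pou2af1, a coactivator of octamer-binding factors, 0.50 for Pou2f2 (Oct-2), 0.53 for Pax5 and 0.05 for Pou2f1 (Oct-1). The median of this list was 0.53.

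Genes of antibody secretion did not move as 1 group. Of 10 tested, 8 were higher and 2 lower by adjusted p, against 27.5% and 29.0% of all tested genes. The median log2 fold change of the 10 was 0.77. Jchain, which links IgM and IgA into polymers, stood at 146, 148 and 151 FPKM with cisplatin and 44.9, 46.0 and 49.5 FPKM in the controls and rose by 1.66, and Eaf2 rose by 1.15. Sdc1, a plasma cell surface marker that epithelial cells also make, fell by 1.64, and Xbp1, the secretory transcription factor, differed by -0.22. Tnfrsf17, the plasma cell receptor BCMA, averaged 0.201 FPKM against 0.0267 FPKM. Of the genes of V(D)J recombination and precursor B cells only 4 of 9 were tested. Dntt, the enzyme that adds bases at V(D)J joints, fell by 1.99 from a mean of 1.62 FPKM (limma adjusted p = 0.0048). The recombinase genes Rag1 and Rag2 were at or near 0 in every library.

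**Figure D5:**
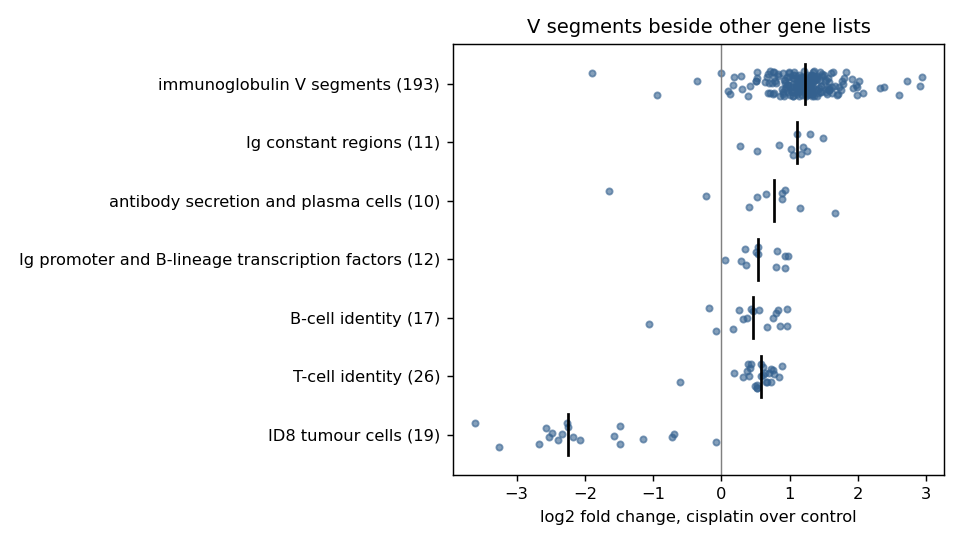
Log2 fold change, cisplatin over control, of the tested V segments and of the tested genes of 6 other lists, 1 point per gene, with a line at the median and the number of genes in parentheses (vertical scatter within a row has no meaning). The V segments centre on 1.23, close to the constant regions at 1.10, and the B-cell and T-cell identity genes on 0.46 and 0.58, while ID8 markers centre on -2.25.

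The V segments remained higher when set against the B-cell or T-cell genes of the same library. The log2 of the V sum minus the mean log2 level of the B-cell identity genes was 8.53, 8.61 and 8.49 with cisplatin and 7.70, 7.86 and 7.81 in the controls, a difference of 0.75. Minus the T-cell identity genes the difference was 0.64. In a limma fit with libraries centred on the B-cell identity genes, 142 of 193 segments were higher and 2 lower by adjusted p (7.22% and 54.4% of all tested genes), and 42 rose by 2-fold (1.32% of all tested genes), with a median of 0.81. Centred on the T-cell identity genes, 30 rose and 2 fell (0.983% and 22.1% of all tested genes), with a median of 0.70. On this last scale Ighv11-2 and Igkv14-126 had log2 fold changes of -0.11 and -0.026. T-cell receptor V segments, which T cells use in place of immunoglobulin V, summed to 738 ± 18.6 FPKM against 447 ± 19.5 FPKM, a log2 difference of 0.72, and the ratio of immunoglobulin to T-cell receptor V signal was 9.61 ± 0.302 against 7.05 ± 0.174 (SD, n = 3).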

How the data were processed

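RNA of 3 cisplatin and 3 control T-cell libraries was sequenced after poly-T selection of total RNA. The authors removed low-quality and adaptor-containing reads and deposited FPKM values per gene. The study's methods name LifeScope for alignment and counting, whereas the submitters' processing notes name fastp, HISAT2 2.0.5, featureCounts 1.5.0-p3 and mm10. Strand use and the treatment of reads matching several genes are not given in the sources used here. All 218 V segments had the coordinates of GENCODE release M21 (GRCm38). The library factor behind the FPKM was 1.03 to 1.05 times the reads on genes in cisplatin libraries and 0.976 to 0.982 times in controls, and FPKM rescaled to those reads were an alternative.

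Whole reads were rebuilt from FPKM and gene length (tolerance 0.1), and all depths rest on them. Changes were tested with limma 3.58.1 (R 4.3.3) by lmFit and eBayes with a trend, on log2(FPKM + 0.1), for genes averaging 0.5 FPKM or more over the 6 libraries, with Benjamini-Hochberg adjustment over all of them. Fold changes are on this log2 scale, which understates changes of low genes. Calls needed an adjusted p-value under 0.05 and 2-fold. Sums and ratios over libraries were compared by two-sided exact permutation (scipy 1.17.1). The scripts were tested on simulated data. Named segments are the 8 highest Ighv, the 8 highest Igkv and all Iglv by mean FPKM, the 5 largest rises and falls among called segments averaging 2 FPKM or more in 1 of the groups, and the genes of the 8 lists (B-cell identity, immunoglobulin transcription factors, antibody secretion, V(D)J recombination and precursors, constant regions, T-cell identity, ID8 cells, myeloid cells). Certain listed genes are left unnamed in the text. The segments and lists were chosen with earlier results of these data known. Alternatives were pseudocounts, filters, scalings, thresholds, limma's voom on the rebuilt reads, single libraries left out and the replicate number as a block.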

Additional observations from a re-analysis of the deposited data

How the results depend on the processing

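Of the V segments, 134 rose and 0 fell as reported. With single libraries left out, 124 to 143 rose and 0 to 2 fell (2 without cisplatin 3). Of all 15874 tested genes, 579 to 692 rose and 1963 to 2045 fell in those fits. The number of rises changed most with the scaling between libraries, to 30 when centred on the T-cell identity genes, 42 when centred on the B-cell identity genes and 4 when centred on the median V segment, and the number of falls to 2, 2 and 6. These centrings shifted the median log2 fold change of all tested genes to -0.50, -0.39 and -1.18. In the same order they called 156, 209 and 44 of the 15874 tested genes higher and 3504, 3030 and 9821 lower. Quantile normalization (150), a pseudocount of 1 (117), a filter of 5 FPKM (107 of 140 tested), no filter (130 of 211), treat at a fold change of 1.5 (111), voom on the rebuilt reads (151 of 186) and FPKM rescaled to the rebuilt reads (147) stayed within 1.5 times. Over all tested genes these settings called, in turn, 979, 311, 242 (of 8422), 756 (of 33456), 594, 1127 (of 18541) and 804 higher. The main fit called 653 of 15874 higher. Centring on the T-cell identity genes turned the log2 fold changes of Ighv11-2 to -0.11 and Igkv14-126 to -0.026. Centring on the median V segment, which by construction puts about as many segments below 0 as above, gave -0.78 for Ighv11-2, -0.068 for Ighv1-26, -0.020 for Ighv9-3, -0.70 for Igkv14-126, -0.16 for Igkv1-110, -0.22 for Igkv6-15, -0.070 for Igkv10-96, -0.025 for Igkv8-30 and -0.083 for Iglv3. That centring and the rescaling to reads were chosen after the data were seen. With the replicate number as a replicate block, 137 rose and 1 fell, against 651 and 2011 of all 15874 tested genes. Same-numbered libraries deviated together with correlations of only 0.02, -0.06 and -0.02 over all tested genes. No large deviation shared by number was therefore seen, but with 3 libraries per group this cannot exclude that the libraries were paired. The sums per locus, the kappa to lambda ratio, the share of the 10 highest segments and the V sum over B-cell identity genes kept their direction under every alternative run. Their groups were separate, so leaving out 1 library could not reverse them. The replicate block cannot change these differences either. Median of ratios and the centrings on T-cell and B-cell identity genes were run only for the sums per locus. Leaving out 1 library gave log2 differences of 1.18 to 1.24 for Ighv, 1.02 to 1.14 for Igkv, 1.32 to 1.42 for Iglv, -0.31 to -0.25 for the kappa to lambda ratio and 0.71 to 0.79 for V over B-cell identity genes, and -0.98 to -0.51 percentage points for the 10 highest segments. Depth limits segments under about 1 FPKM, of which 3 of 10 rose.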

Other observations

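Replicate spread was compared between V segments and other genes of 100 to 5000 rebuilt reads. In the cisplatin libraries the median ratio of variance to mean was 4.06 over 135 V segments and 3.14 over 10558 other genes. In the control libraries it was 3.096 over 96 V segments and 3.12 over 10742 other genes. These are descriptions over segments that share libraries, and no test was run.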
